A study of Mus musculus with 15 samples.

Results

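Edited transplant was compared with wild type in mouse cerebellum: 5 libraries of YG8JR mice that had received mPPL-001 cells against 3 libraries of WT mice, 8 of the 15 bulk RNA-seq libraries in the series, chosen by their labels. YG8JR is a mouse model of Friedreich ataxia, an inherited ataxia in which mitochondria are short of iron-sulphur clusters, and WT mice carry the normal genotype; the labels give no further allele for either. The mPPL-001 mice were irradiated with 7 Gy at 2.5 to 3.0 months of age, were infused a day later with Sca1+ marrow stem and progenitor cells of YG8JR donors edited with Cas9 and a pair of guides, and drank antibiotic water for 1 month. The 4 mock libraries came from mice given the same cells without Cas9, the 3 untreated YG8JR libraries came from mice labelled as untreated, and all were labelled 6 months after transplant; WT mice carry no label of irradiation or transplant. Irradiation, donor cells, editing and the YG8JR genotype therefore all separate mPPL-001 from WT and cannot be told apart by this comparison alone, so the mock and untreated values are given beside it. How many of the marrow cells in each mouse came from the donor is not given in the labels, nor is the sex of mice or donors.

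Marrow stem cells give rise to monocytes, which can enter the irradiated brain and settle there as macrophages. The resident microglia come from the yolk sac and normally renew themselves without the marrow. Both are phagocytes that engulf debris, digest it in lysosomes, make complement and reactive oxygen, and show protein fragments to T cells on MHC molecules. The labelled tissue is cerebellum, where Purkinje cells carry the output of the cortex and granule cells relay its input.

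Gene counts per library summed to 21572184 to 37719880 in mPPL-001 and to 16847875 to 37210466 in WT. Values are CPM, counts scaled to a common library size by TMM, and folds are log2 fold changes of mPPL-001 over WT, with standard errors, from edgeR's quasi-likelihood test in 1 model over the 15 libraries with the labelled batch as a term. A gene is called at a Benjamini-Hochberg adjusted p of 0.05 over 24990 genes. The labels do not say whether replicates are separate litters or days, and a p-value speaks only for the spread among the libraries at hand.

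The libraries were not alike in tissue. Gabra6, a GABA-A receptor subunit that marks granule neurons, stood at 0.46, 379.8, 71.9, 0.585 and 206 CPM in mPPL-001 replicates 1 to 5 and at 504, 473 and 12.4 CPM in WT replicates 1 to 3. Pcp2, a Purkinje cell marker, stood at 0.585 and 1.24 CPM in mPPL-001 replicates 1 and 4 and at 1.39 CPM in WT replicate 3, against 21.2 to 67.7 CPM in the other 5 libraries. Slc6a5, the glycine transporter of glycinergic neurons, was highest in mPPL-001 replicate 1 at 631 CPM and in WT replicate 3 at 386 CPM. These 2 neuron markers thus did not bear out the labelled cerebellum in mPPL-001 replicates 1 and 4, where both were near 0. The summed marker lists were not near 0 there, but were lower than in every other library compared. Granule neuron genes were at 747 and 849.8 CPM, against 1433 CPM in WT replicate 3, and Purkinje cell genes at 3053 and 3231 CPM, against 3494 CPM. In mPPL-001 replicates 2 and 5 and WT replicates 1 and 2 the sums were 4010.1 to 8820.4 CPM and 7171 to 26419 CPM. Whether the low sums come from granule or Purkinje cells was not tested. Mock replicate 2 and untreated YG8JR replicate 3 were also under 1 CPM of Gabra6, at 0.547 and 0.0586 CPM. Of the libraries compared, mPPL-001 replicates 1, 3 and 4 and WT replicate 3 carry the batch label A. The label B is carried by mPPL-001 replicates 2 and 5 and WT replicates 1 and 2.

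**Figure D1:**
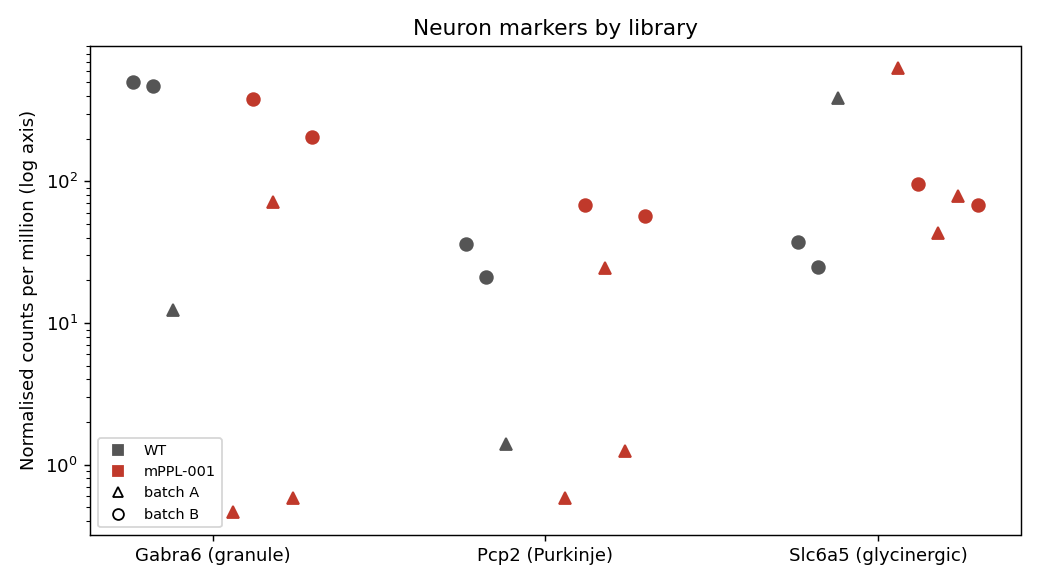
Normalised CPM (log axis) of 3 neuron markers in each WT (grey) and mPPL-001 (red) library; triangles are batch A and circles batch B. Gabra6 and Pcp2 were near 0 in mPPL-001 replicates 1 and 4, and low in the library labelled WT replicate 3.

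The library labelled WT replicate 3 stood apart from the other WT libraries. Summed Y-linked genes were at 0.035 and 0.0503 CPM in WT replicates 1 and 2, at 253 CPM in the library labelled WT replicate 3 and at 225 to 252 CPM in mPPL-001. Mitochondrially encoded genes took 1.94% and 1.54% of counts in WT replicates 1 and 2, 3.26% in the library labelled WT replicate 3, and 2.88% to 5.59% in mPPL-001. Set against the batch A mPPL-001 libraries, its deviation over 17595 genes had a slope of -0.04 on the batch B difference of WT minus mPPL-001. A library with the same difference would give 1, and the batch A mPPL-001 libraries themselves gave -0.26 to 0.29. The batch B difference also holds sex, as read from Y-linked genes. The slope therefore cannot show whether this library lacks the difference between WT and mPPL-001. Counts of calls are given without it as well, and so are some, not all, of the list medians that it moves. WT replicate 2 stood apart in other ways. It had the fewest counts, 16847875, and its summed cytosolic ribosomal protein genes were at 1748 CPM, against 3481 and 3959.7 CPM in WT replicates 1 and 3. Its summed lysosomal genes were at 1684 CPM, against 3267 and 3521 CPM. Without WT replicate 2 the median log2 fold change of lysosomal genes went from 0.44 to 0.19. That of nuclear genes of complexes II to V went from 0.32 to 0.04. In batch B sex, as read from Y-linked genes, and group cannot be told apart.

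Against WT, mPPL-001 cerebellum had 54 genes higher and 4 lower, which is 0.216% and 0.016% of those tested; 3946 genes, 15.8%, had an unadjusted p under 0.05. Phagocyte genes such as Lyz2, Ms4a7 and Cybb, transcripts of 12 satellite-like predicted genes and 2 mitochondrial messages made up much of the higher group. Sorted by hand after their values were seen, the 54 held 23 immune and phagocyte genes, 12 satellite-like genes, 6 mitochondrial genes or nuclear copies of them, and 13 others. The groups did not overlap for 53 of the 54, while over all genes tested the mPPL-001 libraries were all above the WT libraries for 2.89% and all below them for 1.72%. The 54 were called on these same libraries, so their separation is not independent evidence. All of the 4 lower genes overlapped. Without the library labelled WT replicate 3 the counts were 1282 higher and 625 lower, 5.13% and 2.5%, and all 58 genes kept their call and direction. Without WT replicate 2 they were 28 higher and 1 lower of 24990, and 29 of the 58 kept their call. With the Y-linked level as a covariate 24 were higher and 0 lower, and without the 4 libraries under 1 CPM of Gabra6 15 were higher and 0 lower, all 58 keeping their direction in both. In these fits 11 and 8 of the 12 satellite-like genes kept their call, 9 and 5 of the 23 immune genes, and 0 of the 6 mitochondrial ones.

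Macrophages that enter from the blood or sit at the brain's borders are told from microglia by genes such as Ms4a7 and Mrc1. Of the 23 genes of the border and marrow-derived macrophage list 21 were tested, all 21 had a positive fold, and 3 were called higher; the median log2 fold change was 1.69. Over all genes tested 51.9% had a positive fold and the median was 0.02. The groups did not overlap for 14 of the 21, and 13 were called with the library labelled WT replicate 3 left out. Positive folds were not particular to macrophage genes. Meningeal fibroblast genes had 17 of 18 positive and 0 called, or 8 without that library, with a median of 1.13. Their median against WT was 1.42 in mock and 0.73 in untreated YG8JR. The part of meninges in these values was not tested. Lyz2, the lysozyme of myeloid cells, stood at 43.6, 63.5, 32.1, 27.2 and 67.9 CPM in mPPL-001 replicates 1 to 5 and at 4.4, 2.46 and 6.07 CPM in WT replicates 1 to 3. Every mPPL-001 library was above every WT library, and the log2 fold change was 3.42 ± 0.41 (edgeR adjusted p = 0.00178). Ms4a7, a membrane protein of border and marrow-derived macrophages, stood at 2.22, 1.95, 1.05, 2.13 and 2.67 CPM in mPPL-001 and at 0.21, 0.151 and 0.187 CPM in WT. Its WT libraries, the third included, were nearly level and far below the mPPL-001 range, with a log2 fold change of 3.46 ± 0.43 (edgeR adjusted p = 0.0022).

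Mrc1, the mannose receptor of border macrophages, was at 9.24, 13, 11.6, 10.5 and 15.1 CPM in mPPL-001 and at 2.9, 2.26 and 4.29 CPM in WT, a log2 fold change of 1.94 ± 0.28 (edgeR adjusted p = 0.00655). Siglec1, a sialic acid receptor of tissue macrophages, was at 5.35, 3.22, 2.59, 2.51 and 4.32 CPM in mPPL-001 and at 0.699, 0.754 and 0.506 CPM in WT, a log2 fold change of 2.57 ± 0.33 (edgeR adjusted p = 0.00271). Both sets of libraries were apart, for Siglec1 with the library labelled WT replicate 3 the lowest of the 8. Ms4a6b, of the same family as Ms4a7, was at 1.92 to 4.08 CPM in mPPL-001 against 0.28, 0.503 and 0.826 CPM in WT, with a log2 fold change of 2.49 ± 0.48 (edgeR adjusted p = 0.0496). Adgre1, which encodes the F4/80 antigen of mouse macrophages and microglia alike, was at 7.19 to 8.83 CPM in mPPL-001 against 1.54, 1.21 and 3.62 CPM in WT, with a log2 fold change of 1.83 ± 0.32 (edgeR adjusted p = 0.0292). Clec4n, the dectin-2 lectin, had no count in any WT library and 0.125 to 0.551 CPM in mPPL-001, at least 7.61-fold higher by a floor of 3 counts over the WT group, and was not called (edgeR adjusted p = 0.0799).

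**Figure D2:**
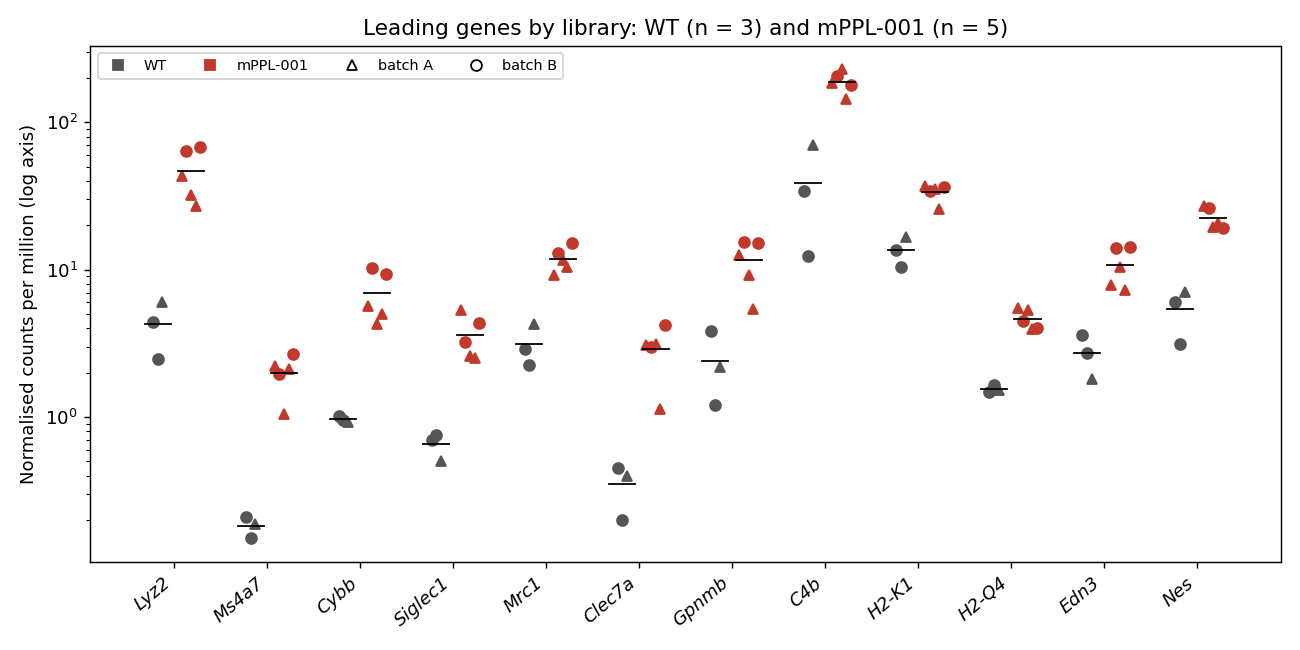
Normalised CPM (log axis) of 12 genes in each WT (grey, n = 3) and mPPL-001 (red, n = 5) library; triangles are batch A, circles batch B and bars group means. For each of the 12 genes the lowest mPPL-001 library lies above the highest WT library; Lyz2 spans 27.2 to 67.9 CPM in mPPL-001 and 2.46 to 6.07 CPM in WT.

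Homeostatic microglia genes held no call. Of 25 homeostatic microglia genes 20 had a positive fold, and the median log2 fold change was 0.47; 8 of the 25 did not overlap between the groups. Fcrls, a microglia-enriched Fc receptor-like protein of mice, was at 14.1 to 20 CPM in mPPL-001 and at 3.04, 1.11 and 7.89 CPM in WT, a log2 fold change of 1.99 ± 0.41 (edgeR adjusted p = 0.0787). Cx3cr1, the fractalkine receptor by which microglia sense neurons, was at 28.8, 19.6, 27.5, 30.1 and 20.6 CPM in mPPL-001 and at 14.2, 10.6 and 18.4 CPM in WT, a log2 fold change of 0.64 ± 0.15 (edgeR adjusted p = 0.104). Both genes separated the groups without passing the test. Without the library labelled WT replicate 3, 8 of the 25 were called higher and the list's median was 0.84. Bulk RNA cannot tell more cells of a type from more RNA per cell.

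Genes that microglia raise around disease and damage held 5 calls. Of 25 disease-associated microglia genes 24 had a positive fold, with a median log2 fold change of 0.85; Lyz2 is 1 of the 5. With the library labelled WT replicate 3 left out 19 of the 25 were called. Cybb, the catalytic subunit of the phagocyte NADPH oxidase, was at 5.69, 10.3, 4.31, 4.99 and 9.42 CPM in mPPL-001 and at 1.01, 0.955 and 0.933 CPM in WT. The 3 WT libraries were level, and the log2 fold change was 2.92 ± 0.27 (edgeR adjusted p = 0.000135). Clec7a, the dectin-1 receptor for fungal glucans, was at 3.09, 2.98, 3.12, 1.14 and 4.2 CPM against 0.454, 0.201 and 0.4 CPM, a log2 fold change of 3.04 ± 0.45 (edgeR adjusted p = 0.00882). Gpnmb, a glycoprotein of phagocytes loaded with lipid or debris, was at 12.6, 15.4, 9.26, 5.4 and 15.2 CPM against 3.81, 1.21 and 2.18 CPM, a log2 fold change of 2.34 ± 0.39 (edgeR adjusted p = 0.0256). In both, mPPL-001 replicate 4 was the lowest mPPL-001 library and still above all WT libraries. Cd68, a lysosomal membrane protein of phagocytes, was at 5.82 to 9.23 CPM against 2.62, 1.81 and 2.66 CPM, with a log2 fold change of 1.74 ± 0.24 (edgeR adjusted p = 0.00606).

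Lysosomal genes held 1 call, or 15 with the library labelled WT replicate 3 left out. Of 30, 29 had a positive fold, Cd68 alone was called, and the median log2 fold change was 0.44, with 0.05 within batch A and 0.75 within batch B. Ctsc, the cathepsin that activates serine proteases of immune cells, was at 9.29 to 14.6 CPM in mPPL-001 against 4.61, 2.16 and 5.99 CPM in WT (log2 fold change 1.36 ± 0.26, edgeR adjusted p = 0.0516). Cathepsin H, from Ctsh, was at 9.84 to 14.5 CPM against 6.12, 3.07 and 7.01 CPM (log2 fold change 1.25 ± 0.25, edgeR adjusted p = 0.071). Neither passed the test, although neither overlapped between the groups.

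The promoters of Cybb, Ms4a7 and Lyz2 are printed as those of 3 called phagocyte genes described above. They are RefSeq sequences on GRCm38.p6 and run from 250 bases before to 30 bases after the gene's start; capitals mark GAGGAA or its reverse complement, the core of sites for PU.1, the factor that drives myeloid genes.
Cybb, chrX:9469295-9469574, minus strand: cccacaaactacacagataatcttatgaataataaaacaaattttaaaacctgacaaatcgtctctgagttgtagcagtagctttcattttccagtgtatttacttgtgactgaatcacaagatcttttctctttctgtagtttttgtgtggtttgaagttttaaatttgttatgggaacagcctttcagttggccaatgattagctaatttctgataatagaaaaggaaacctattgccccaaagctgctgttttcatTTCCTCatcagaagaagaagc
Ms4a7, chr19:11336117-11336396, minus strand: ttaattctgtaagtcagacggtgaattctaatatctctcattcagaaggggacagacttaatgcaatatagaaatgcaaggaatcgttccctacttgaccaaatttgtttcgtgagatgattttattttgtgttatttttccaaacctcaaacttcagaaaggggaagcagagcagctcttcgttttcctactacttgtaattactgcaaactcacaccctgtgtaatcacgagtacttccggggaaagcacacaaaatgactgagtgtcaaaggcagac
Lyz2, chr10:117282243-117282522, minus strand: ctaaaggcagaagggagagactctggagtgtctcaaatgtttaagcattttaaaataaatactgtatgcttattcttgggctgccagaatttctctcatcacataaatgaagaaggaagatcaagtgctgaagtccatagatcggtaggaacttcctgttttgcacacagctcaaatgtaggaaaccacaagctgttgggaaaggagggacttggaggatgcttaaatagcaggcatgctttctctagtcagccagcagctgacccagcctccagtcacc
Cybb has 1 match, and the other two have none in this window. Of the 58 called genes 29 had a promoter entry, and 10 of these, 34.5%, held the letters on either strand, against 28.7% of 27025 genes with an entry. The called genes thus held these letters at about the rate of all promoters.

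SLAM receptors, which bind copies of themselves on other blood cells, had 2 of 7 tested genes called, 6 positive, 3 called without WT replicate 3, and a median log2 fold change of 1.83. Ly9 was at 1.3, 1.19, 1.95, 0.792 and 2.16 CPM in mPPL-001 and at 0.245, 0.101 and 0.373 CPM in WT (log2 fold change 2.54 ± 0.46, edgeR adjusted p = 0.0408). Cd84 was at 6.06 to 7.44 CPM and at 1.61, 1.46 and 2.66 CPM (log2 fold change 1.83 ± 0.26, edgeR adjusted p = 0.00606). The groups did not overlap for either. Tnfsf8, the CD30 ligand, was at 1.1 to 2.1 CPM against 0.315, 0.151 and 0.4 CPM (log2 fold change 2.22 ± 0.42, edgeR adjusted p = 0.0469).

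Complement tags debris and synapses for engulfment. Of 20 tested complement genes 16 had a positive fold and 2 were called, or 9 with the library labelled WT replicate 3 left out, and the median log2 fold change was 0.77. C4b, the classical-pathway component C4, was at 184, 207, 229, 144 and 179 CPM in mPPL-001 and at 34.2, 12.4 and 70.4 CPM in WT. The library labelled WT replicate 3 was the WT library nearest to mPPL-001, and the log2 fold change was 2.27 ± 0.41 (edgeR adjusted p = 0.0375), or 3.01 without it. C3ar1, the receptor for the C3a fragment, was at 6.31, 6.33, 5.62, 3.92 and 7.18 CPM against 2.24, 2.16 and 2.21 CPM, with WT nearly level (log2 fold change 1.44 ± 0.23, edgeR adjusted p = 0.0188). C1qa and C1qc, chains of the C1q recognition protein, were at 24.5 to 36.7 and 21.4 to 33.4 CPM against 3.22 to 16.1 and 4.22 to 17.8 CPM, and missed the threshold (log2 fold changes 1.48 ± 0.37 and 1.23 ± 0.33, edgeR adjusted p = 0.139 and 0.148).

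Class I antigen presentation held 3 of the calls, and 8 with the library labelled WT replicate 3 left out. MHC class I molecules show peptides from inside the cell to CD8 T cells; of 19 tested genes 18 had a positive fold, 3 were called, 11 did not overlap, and the median log2 fold change was 0.96. H2-K1, a classical class I heavy chain, was at 37.2, 34.4, 35.3, 26 and 36.2 CPM in mPPL-001 and at 13.6, 10.4 and 16.8 CPM in WT (log2 fold change 1.32 ± 0.20, edgeR adjusted p = 0.0114). H2-Q4 was at 3.96 to 5.52 CPM against 1.47, 1.66 and 1.52 CPM (log2 fold change 1.65 ± 0.31, edgeR adjusted p = 0.0442), and H2-Q6 at 3.55 to 5.52 CPM against 1.4, 0.955 and 0.879 CPM (log2 fold change 1.90 ± 0.32, edgeR adjusted p = 0.0256). The groups were apart for all 3, and H2 genes are close paralogs, so reads may have been split between them in counting. B2m, the class I light chain, was at 68.3 to 106 CPM against 50.8, 23.8 and 45.7 CPM and missed the threshold (log2 fold change 1.20 ± 0.25, edgeR adjusted p = 0.0799).

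MHC class II, which professional presenting cells use to show engulfed peptides to CD4 T cells, had 8 of 10 tested genes positive and none called, with a median log2 fold change of 1.28. H2-Aa, a class II alpha chain, was at 2.84, 2.52, 3.84, 2.75 and 6.75 CPM in mPPL-001 and at 1.4, 0.754 and 1.41 CPM in WT (log2 fold change 1.69 ± 0.41, edgeR adjusted p = 0.126). H2-Eb1, a class II beta chain, was at 2.34 to 6.08 CPM against 0.769, 0.754 and 1.71 CPM (log2 fold change 1.73 ± 0.44, edgeR adjusted p = 0.141). Cd74, the invariant chain, was at 5.44 to 15.5 CPM against 2.76, 0.955 and 4.1 CPM (log2 fold change 1.75 ± 0.47, edgeR adjusted p = 0.148). All 3 had separate groups with mPPL-001 replicate 5 the highest. Without the library labelled WT replicate 3 class II held 5 calls, and the 3 were called at log2 fold changes of 2.12, 2.65 and 2.60 (edgeR adjusted p = 0.0275, 0.00938 and 0.0138).

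Interferon genes had close medians in both batches. Type I interferon-stimulated genes had 38 of 39 positive, 1 called and a median log2 fold change of 0.85, with 0.81 within batch A and 0.89 within batch B. The GTPases that interferon-gamma raises against intracellular pathogens had 15 of 15 positive, none called, and a median of 0.85, with 0.97 and 0.91 within the batches. Ifih1, the MDA5 sensor of long double-stranded RNA, was the called gene, at 10.8, 13.7, 13.9, 9.95 and 16.8 CPM in mPPL-001 against 7.65, 5.38 and 6.61 CPM in WT (log2 fold change 1.05 ± 0.19, edgeR adjusted p = 0.0417). Lgals3bp, a secreted galectin-binding protein, was at 23.6 to 47.1 CPM against 11.7, 5.53 and 17.9 CPM (log2 fold change 1.64 ± 0.33, edgeR adjusted p = 0.0727), and Gbp9 at 5.85 to 7.26 CPM against 4.68, 2.77 and 2.98 CPM (log2 fold change 1.00 ± 0.23, edgeR adjusted p = 0.102). With the library labelled WT replicate 3 left out the type I list held 8 genes called higher and 1 lower, and the GTPases 1 higher. The medians did depend on the other WT libraries. Without WT replicate 2 they were 0.61 for the type I list and 0.63 for the GTPases. With WT replicate 1 as the only WT library they were 0.52 and 0.46.

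Genes of other blood cells held no call; with the library labelled WT replicate 3 left out 2 T and NK cell genes were called higher. Of 12 tested T and NK cell genes 7 were positive, with a median log2 fold change of 0.17; of 6 B and plasma cell genes all 6 were positive, with a median of 0.72; of 6 neutrophil genes 4 were positive, with a median of 0.77; and of 4 erythroid genes 2 were positive, with a median of 0.13. Trac, the constant chain of the T cell receptor, was at 1.98 to 2.87 CPM in mPPL-001 against 0.734, 0.704 and 1.52 CPM in WT (log2 fold change 1.18 ± 0.30, edgeR adjusted p = 0.139).

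The same genes in the mock and untreated mice show how the comparison reads. The 3 comparisons share the WT libraries, so their values stand side by side and are not independent. In mock, 96 genes were higher than WT and 7 lower, 0.384% and 0.028%; in untreated YG8JR, 30 and 6, 0.12% and 0.024%. For Lyz2 the log2 fold change against WT was 3.42 in mPPL-001, 3.21 ± 0.41 in mock and 2.02 ± 0.41 in untreated YG8JR. Ms4a7 was at 3.46, 2.92 ± 0.43 and 1.27 ± 0.46, Siglec1 at 2.57, 2.27 ± 0.33 and 1.22 ± 0.34, and Mrc1 at 1.94, 1.86 ± 0.28 and 1.02 ± 0.29. For these 4 genes the untreated mice had the smallest fold.

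Not all genes had this order. Clec7a was at 3.04 in mPPL-001, 3.39 ± 0.46 in mock and 3.56 ± 0.48 in untreated YG8JR, Ly9 at 2.54, 2.98 ± 0.47 and 3.24 ± 0.49, and C4b at 2.27, 2.43 ± 0.42 and 2.33 ± 0.43. The microglia list had medians of 0.47, 0.65 and 0.97 in that order, and the macrophage list 1.69, 1.86 and 1.02. H2-Aa was at 1.69 in mPPL-001, 2.74 ± 0.44 in mock and 1.02 ± 0.44 in untreated YG8JR.

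Tested directly, mPPL-001 against mock had no called gene in either direction (edgeR, with 534 genes at an unadjusted p under 0.05; DESeq2 also called none). Against untreated YG8JR, mPPL-001 had 8 genes higher and 0 lower (0.032% and 0%), with 836 at an unadjusted p under 0.05 (DESeq2 called 15 and 6, 0.06% and 0.024%). All 8 were satellite-like genes. Ms4a7 was 2.19 ± 0.38 higher than in untreated YG8JR on the log2 scale and missed the threshold (edgeR adjusted p = 0.0929), as did Cybb at 1.31 ± 0.25 (edgeR adjusted p = 0.2) and Siglec1 at 1.35 ± 0.29 (edgeR adjusted p = 0.48). A missed threshold does not show that the groups were equal.

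**Figure D3:**
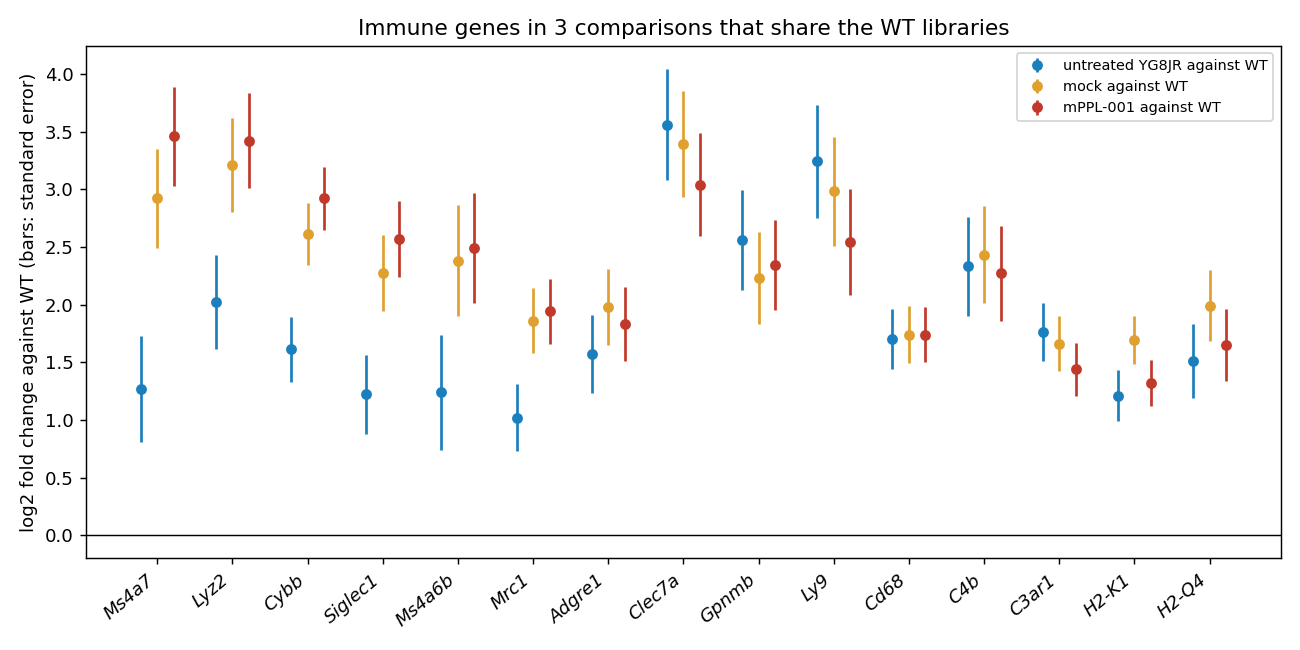
Log2 fold change against WT, with its standard error as bars, for 15 immune genes in untreated YG8JR (blue), mock (amber) and mPPL-001 (red). The 3 comparisons share the WT libraries; Ms4a7 stands at 1.27, 2.92 and 3.46, while Cd68 stands at 1.70, 1.74 and 1.74.

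Among the lists, the median fold was largest in 12 predicted genes whose transcripts repeat a satellite-like unit. This list was chosen with earlier results of these data known, so its rank and its share of called genes are not independent evidence. Mouse major satellite is a short repeat that fills the heterochromatin beside the centromeres and is normally little transcribed. Shifted on itself, the longest transcript of each of the 12 was most alike at 225 to 237 bases, with 52.7% to 67.6% of bases alike. Only a limited range of shifts around these lengths was tried, so much shorter or longer repeats were not looked for. A pair of stretches of the Gm10718 transcript, a gene on chromosome 9 in GENCODE M21, is shown so that the repeat can be seen; capitals mark bases alike in both, 160 of 168.
Gm10718 transcript bases 67 to 234: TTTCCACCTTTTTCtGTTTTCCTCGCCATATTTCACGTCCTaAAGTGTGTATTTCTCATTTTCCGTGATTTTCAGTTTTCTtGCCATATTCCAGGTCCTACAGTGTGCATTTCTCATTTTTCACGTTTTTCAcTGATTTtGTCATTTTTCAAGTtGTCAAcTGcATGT
Gm10718 transcript bases 301 to 468: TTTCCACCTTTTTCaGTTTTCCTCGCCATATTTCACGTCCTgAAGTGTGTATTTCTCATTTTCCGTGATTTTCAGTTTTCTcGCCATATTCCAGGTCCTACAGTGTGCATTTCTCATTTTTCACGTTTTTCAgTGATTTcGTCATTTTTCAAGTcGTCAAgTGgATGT
Each of the 12 shared 34.3% to 89.3% of its 31-base words with the other 11, so reads may have been split between them and single-gene values are uncertain; their sum is given first. The sum was 1801, 438, 1144, 1153 and 418 CPM in mPPL-001 replicates 1 to 5 and 12.1, 15.4 and 69.7 CPM in WT replicates 1 to 3. The library labelled WT replicate 3 was the highest WT library, and the batch B mPPL-001 libraries the lowest mPPL-001 ones. In mock the sums were 767, 1073, 1077 and 928 CPM, and in untreated YG8JR 48.9, 61.1 and 89.5 CPM. All transplanted libraries were thus above all others.

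All 12 were called higher in mPPL-001 than in WT, with a median log2 fold change of 5.05, and the same median with Gm10715 at its bound. Gm10801 was at 75.4, 26.6, 44.9, 50.9 and 25.5 CPM in mPPL-001 and at 1.4, 0.955 and 3.57 CPM in WT (log2 fold change 4.28 ± 0.28, edgeR adjusted p = 5.01e-06). Gm10718 was at 15 to 51.3 CPM against 0.629 to 2.08 CPM (log2 fold change 4.60 ± 0.31, edgeR adjusted p = 5.01e-06), Gm21738 at 33.7 to 140.0 CPM against 0.955 to 3.97 CPM (5.01 ± 0.38, edgeR adjusted p = 1.45e-05), and Gm10717 at 5.26 to 18.5 CPM against 0.175 to 0.48 CPM (5.09 ± 0.40, edgeR adjusted p = 1.85e-05). Gm10715 had no count in any WT library and 0.912 to 3.93 CPM in mPPL-001, at least 48.1-fold higher by a floor of 3 counts over the WT group. The list's median was 5.47 without the library labelled WT replicate 3, 4.64 within batch A and 4.90 within batch B. It was 5.22 in mock and 1.05 in untreated YG8JR, each against WT, and -0.27 for mPPL-001 against mock.

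**Figure D4:**
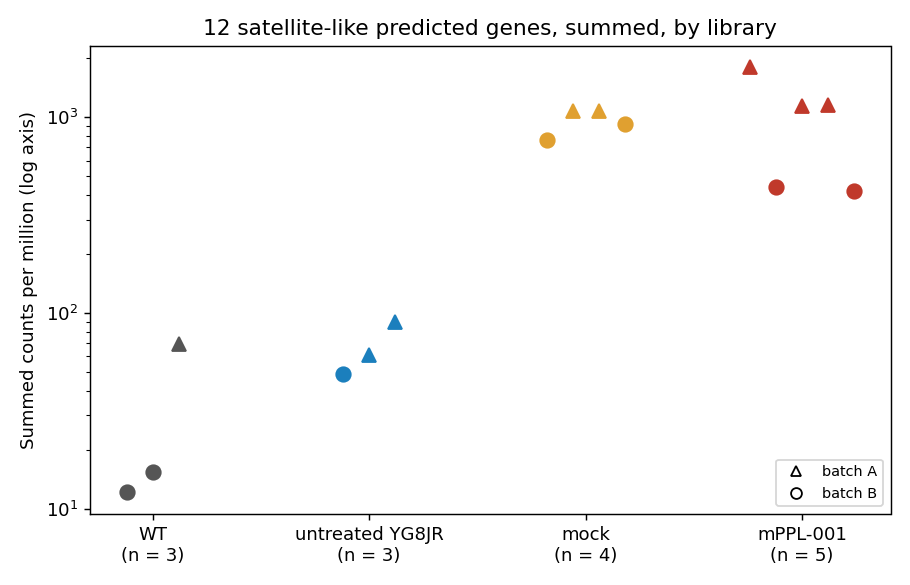
Summed CPM (log axis) of the 12 satellite-like predicted genes in each library of the 4 groups; triangles are batch A and circles batch B. The mPPL-001 libraries lie at 418 to 1801 CPM and the WT libraries at 12.1 to 69.7 CPM.

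Mitochondrial messages had positive folds throughout. All 13 mitochondrially encoded genes tested had a positive fold, 2 were called, 12 did not overlap between the groups, and the median log2 fold change was 1.11. Their sums did overlap, at 27036 to 46999 CPM in mPPL-001 and at 17939, 11506 and 27059 CPM in WT replicates 1 to 3. The 2 called messages were a small part of these sums. mt-Co2, a cytochrome oxidase subunit, was at 101, 77.2, 54.2, 77.4 and 117 CPM in mPPL-001 and at 36.3, 19 and 31.4 CPM in WT (log2 fold change 1.57 ± 0.29, edgeR adjusted p = 0.0417). mt-Atp6, a subunit of the ATP synthase, was at 39.4 to 79.9 CPM against 27.4, 21.3 and 21.2 CPM (log2 fold change 1.38 ± 0.26, edgeR adjusted p = 0.0471). The groups did not overlap for either. Of the 4 nuclear copies called with them, Gm28661 shared 100% of its 31-base words with mt-Co2, Gm10925 100% with mt-Atp6, Gm29216 97.2% with mt-Co1 and Gm13341 48% with mt-Co2, so reads may have been split between them and their separate values are uncertain. With the library labelled WT replicate 3 left out 10 of the 13 messages were called. None of the 6 genes kept its call with the Y-linked covariate, or without the 4 libraries under 1 CPM of Gabra6. The share of mitochondrial counts differed between WT libraries, as given above, and the part of RNA quality or dissection in this result was not tested.

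Nuclear genes of the same complexes held no call. Of 36 complex I subunit genes 34 had a positive fold, with a median log2 fold change of 0.29, and of 38 genes of complexes II to V 37 did, with a median of 0.32. Within batch A these medians were -0.05 and -0.07; with the library labelled WT replicate 3 left out 1 gene of each list was called. Genes of iron-sulphur cluster assembly had 17 of 27 positive and none called, with a median of 0.11, and enzymes that carry iron-sulphur clusters or haem had 21 of 30 positive and none called, with a median of 0.18; without WT replicate 3 the counts were 0 for assembly, and 2 higher and 1 lower for the enzymes. Fdxr, the ferredoxin reductase that feeds electrons to cluster assembly, was at 12.2, 12.7, 10.1, 10.6 and 12.2 CPM in mPPL-001 and at 15.1, 22 and 12.1 CPM in WT (log2 fold change -0.39 ± 0.18, edgeR adjusted p = 0.313). Mms19, of the cytosolic assembly machinery, was at 31.1 to 35.3 CPM against 39.4, 52 and 31.8 CPM (log2 fold change -0.25 ± 0.12, edgeR adjusted p = 0.306). Hspa9, the mitochondrial chaperone that hands clusters on, was at 180.3 to 269.6 CPM against 213, 117 and 192 CPM (log2 fold change 0.34 ± 0.18, edgeR adjusted p = 0.355). Each of the 3 overlapped between the groups.

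Stress genes had 2 calls. Nupr1, a small chromatin protein raised by stress, was at 5.27, 4.23, 5.21, 4.58 and 4.28 CPM in mPPL-001 and at 2.1, 0.704 and 1.31 CPM in WT (log2 fold change 1.74 ± 0.29, edgeR adjusted p = 0.0256). Slc7a11, the cystine importer that supplies glutathione and holds off ferroptosis, was at 72.4, 73.2, 92.2, 105 and 88.4 CPM against 46.1, 30.1 and 53.1 CPM (log2 fold change 0.95 ± 0.18, edgeR adjusted p = 0.0463). It is on both the NRF2 list, where 30 of 30 genes were positive with a median log2 fold change of 0.43, and the integrated stress response list, where 26 of 29 were positive with a median of 0.34. Within batch A the medians were 0.01 and 0.11, and with the library labelled WT replicate 3 left out 7 and 5 genes were called higher and 0 and 1 lower. Without WT replicate 2 the medians were 0.13 and 0.10. So high a share of positive folds was not particular to stress genes. Cytosolic ribosomal protein genes had 39 of 39 positive, with a median of 0.24. Atf5, a factor of the mitochondrial unfolded protein response, was at 23 to 33 CPM against 21, 8.19 and 14.3 CPM and missed the threshold (log2 fold change 1.04 ± 0.23, edgeR adjusted p = 0.096). Eda2r, a p53 target, was at 1.98 to 3.07 CPM against 0.489, 0.603 and 1.23 CPM (log2 fold change 1.67 ± 0.40, edgeR adjusted p = 0.117), and 20 of 24 p53 targets were positive with none called, or 7 without WT replicate 3.

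Glia and vessels held few calls. Nes, the intermediate filament nestin of progenitors, reactive astrocytes and vessels, was at 27, 26.3, 19.5, 20.9 and 19.3 CPM in mPPL-001 and at 6.05, 3.12 and 7.11 CPM in WT (log2 fold change 2.02 ± 0.25, edgeR adjusted p = 0.0022). Edn3, the peptide endothelin 3, was at 7.94, 14, 10.4, 7.33 and 14.2 CPM against 3.6, 2.71 and 1.81 CPM (log2 fold change 2.11 ± 0.24, edgeR adjusted p = 0.00106). Cd93, an endothelial and myeloid receptor, was at 28.3 to 38.2 CPM against 9.16, 4.37 and 18.7 CPM (log2 fold change 1.54 ± 0.26, edgeR adjusted p = 0.0275). None of the 3 overlapped between the groups. Endothelial genes had 20 of 20 positive, 1 called (11 without WT replicate 3) and a median log2 fold change of 0.80, and Cldn5, the tight junction claudin, was at 23.1 to 33.9 CPM against 11.6, 7.34 and 11.2 CPM (log2 fold change 1.30 ± 0.25, edgeR adjusted p = 0.0516). Gfap, the astrocyte filament, was at 520.5, 612, 520.0, 324 and 505 CPM in mPPL-001 and at 151, 76.2 and 379 CPM in WT, where the library labelled WT replicate 3 overlapped with mPPL-001 (log2 fold change 1.32 ± 0.40, edgeR adjusted p = 0.193; 2.19 without it, edgeR adjusted p = 0.00874).

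Mature oligodendrocyte genes had 21 of 21 positive and none called, with a median of 0.36 that was -0.39 within batch A and 1.00 within batch B. Astrocyte genes had 15 of 15 positive and none called, with a median of 0.61, and 0.15 and 1.06 within the batches. With the library labelled WT replicate 3 left out, 11 of the 21 oligodendrocyte and 8 of the 15 astrocyte genes were called higher, with medians of 0.90 and 1.00.

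Neuron lists held no call; with the library labelled WT replicate 3 left out 5 granule neuron genes were called lower and 2 Purkinje cell genes higher. Of 22 granule neuron genes 4 had a positive fold and none was called, with a median of -0.46 that was 0.02 within batch A and -0.87 within batch B. Calb2, the calretinin of granule and unipolar brush cells, was at 83.1, 127, 122, 113 and 135 CPM in mPPL-001 and at 188, 191 and 157 CPM in WT, with no overlap (log2 fold change -0.55 ± 0.13, edgeR adjusted p = 0.117). Purkinje cell genes had 25 of 25 positive and none called, with a median of 1.01, or 0.48 without mPPL-001 replicate 3. Their sums overlapped, at 3053 to 26419 CPM in mPPL-001 and at 3494 to 13389.9 CPM in WT. Choroid plexus genes had a median of 0.60, with -1.97 within batch A and 3.54 within batch B, and 2.86 without the library labelled WT replicate 3. Single libraries set these values. In batch B their sum was 8114 CPM in mPPL-001 replicate 5 and 279.8 CPM in replicate 2, against 223 and 232 CPM in WT. In batch A it was 1592 CPM in the library labelled WT replicate 3, against 332 to 369 CPM in mPPL-001. The part of dissection in these values was not tested.

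Few genes were lower. Crhr1, the receptor for corticotropin-releasing hormone, was at 18.8, 35.7, 20.9, 16.6 and 26.8 CPM in mPPL-001 and at 60.5, 91.4 and 31.8 CPM in WT (log2 fold change -1.04 ± 0.16, edgeR adjusted p = 0.0132). Tead4, a transcription factor of the Hippo pathway, was at 1.09, 4.87, 1.75, 1.48 and 3.96 CPM against 9.58, 16.7 and 3.12 CPM (log2 fold change -1.38 ± 0.24, edgeR adjusted p = 0.0344). Neurl1a, a neuronal ubiquitin ligase, was at 36, 78.7, 55.9, 47.6 and 65.3 CPM against 132, 159 and 66.8 CPM (log2 fold change -0.89 ± 0.17, edgeR adjusted p = 0.0496). In all 3 the library labelled WT replicate 3 lay within the mPPL-001 range, and the batch B mPPL-001 libraries were the highest mPPL-001 ones. Gm9899, a predicted gene named outside the naming rule, was the fourth (log2 fold change -0.87 ± 0.16, edgeR adjusted p = 0.0442). Ptpru and Tll1, next by p-value, missed the threshold (log2 fold changes -0.62 ± 0.12 and -1.03 ± 0.21, edgeR adjusted p = 0.0643 and 0.0664).

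Across gene lists, the medians were mostly larger within batch B, or with the library labelled WT replicate 3 left out, than over both batches together, and smaller within batch A. Among the 21 lists plotted, the SLAM, interferon and satellite-like lists moved least in proportion between these fits. The interferon medians were smaller without WT replicate 2, as given above. Border and marrow-derived macrophage genes had a median of 2.41 without that library, 0.92 within batch A and 2.28 within batch B. Complement genes had 1.27, 0.33 and 1.44, class II genes 1.95, 0.43 and 1.96, and disease-associated microglia genes 1.43, 0.35 and 1.53. With WT replicate 2 left out instead, these medians were smaller than over both batches with all libraries. They were 1.33 for macrophage, 0.53 for complement, 0.94 for class II and 0.47 for disease-associated microglia genes.

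**Figure D5:**
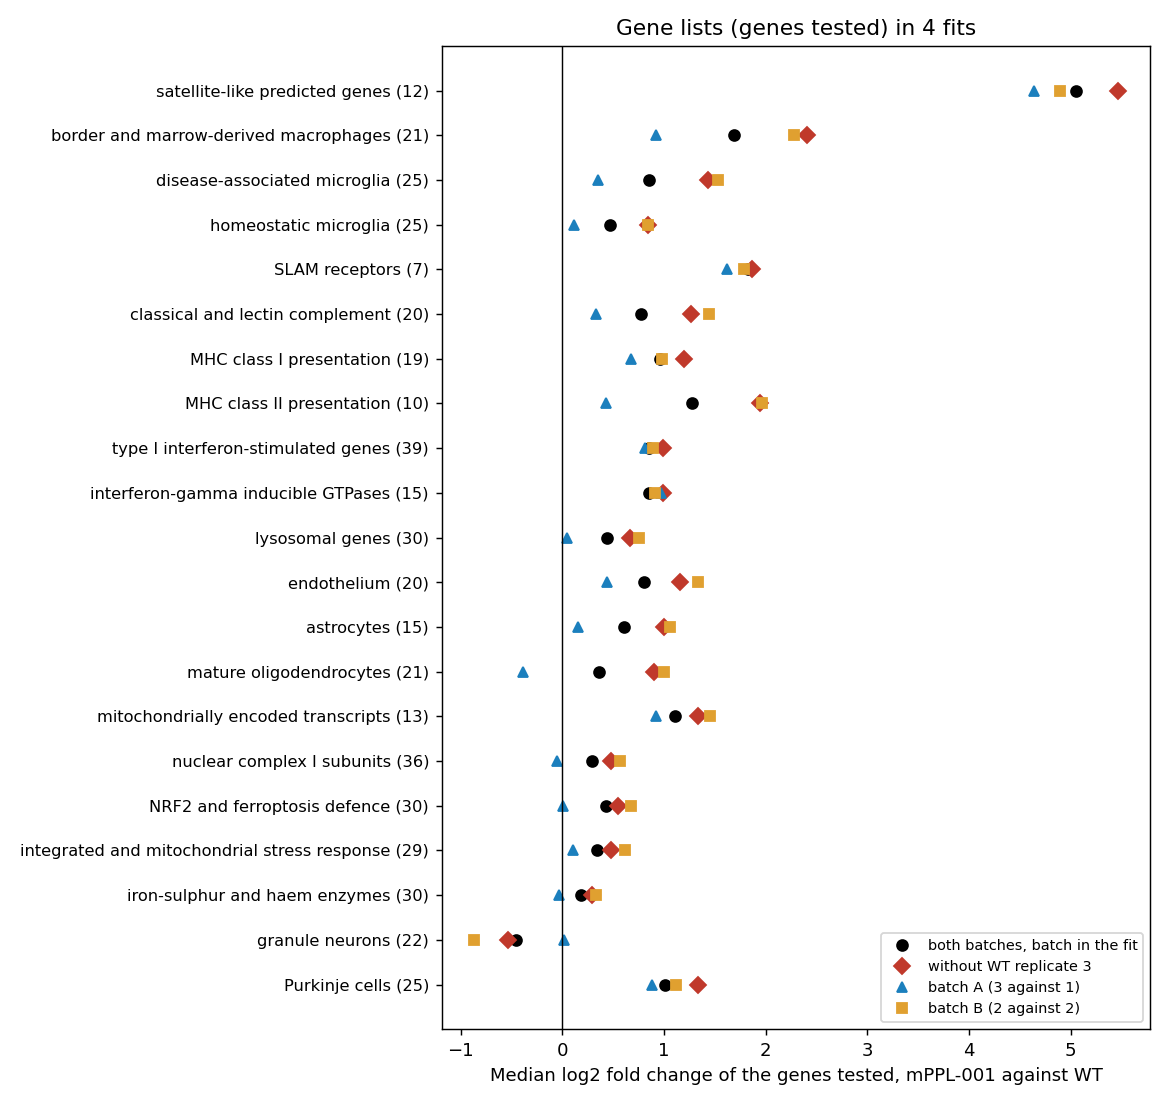
Median log2 fold change of mPPL-001 against WT over the genes tested of 21 lists (number of genes in brackets), in the fit of both batches (black circles), without the library labelled WT replicate 3 (red diamonds), within batch A (blue triangles) and within batch B (amber squares). Macrophage genes stand at 1.69, 2.41, 0.92 and 2.28, and mature oligodendrocyte genes at 0.36, 0.90, -0.39 and 1.00.

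The rest of the higher genes, named like Adgre1 after their values were seen, included Lilra5, Ctse, Mpeg1 and Mr1 among the immune genes, and Acvrl1, Clic5, Anxa3, Fli1, Vav3, AU020206 and C130074G19Rik among the others. Mpeg1, the perforin-2 of macrophages, was at 34.6 to 45.4 CPM in mPPL-001 and at 13.9, 7.54 and 21.1 CPM in WT (log2 fold change 1.47 ± 0.25, edgeR adjusted p = 0.0256). Ctse, the cathepsin E of immune cells, had no count in any WT library and 0.275 to 1.28 CPM in mPPL-001, at least 19.2-fold higher by the same floor. Vav3 was the called higher gene whose groups overlapped, at 25.2 to 43.9 CPM against 27.8, 18.6 and 16.3 CPM (log2 fold change 0.76 ± 0.14, edgeR adjusted p = 0.0463).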

How the data were processed

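Bulk RNA-seq of 15 libraries (mPPL-001, n = 5; mock, n = 4; untreated YG8JR, n = 3; WT, n = 3) was used as the authors' deposited table of whole-number counts per gene, not normalized. Per the submitters' processing notes STAR and GRCm39 were used; of the counting tool, annotation and strand setting, none is named in the labels or file headers. Per the labels' protocols the libraries were ribodepleted, made with a stranded kit and sequenced in pairs. Of 55487 mouse genes 99.4% were matched to a symbol; 1 non-mouse row was left out of library sizes and tests. Results for some genes, among them part of what bears on how WT replicate 3 is labelled, are not reported here.

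Genes with at least 10 counts in enough libraries and 15 in all (edgeR's filterByExpr; 24990 genes) were scaled by TMM and fitted with edgeR 4.0.16 (glmQLFit, robust) on group and batch, under R 4.3.3; the common dispersion was 0.11. The fit over all 15 libraries shares 1 estimate of the spread. Alternatives used DESeq2 1.42.0, limma 3.58.1 (voom with sample weights), other filters and scalings, batch, sex and tissue terms, and each library left out. The code was tested on simulated counts. No pair within mPPL-001 or within WT agreed within sampling noise. Replicate numbers are shared by groups but did not pair the libraries (correlations of same-numbered deviations -0.52, -0.3 and -0.01 over 12700 genes). Genes were named by rule: up to 12 called genes a direction by fold with at least 1 CPM and a proper name, 4 genes of smallest p a list, and the 5 smallest p where fewer than 5 were called. The members and the 53 lists were chosen with earlier results of these data known. 12 list symbols were absent from the table.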

Additional observations from a re-analysis of the deposited data

Results flagged for a closer look

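Within the 5 mPPL-001 libraries, single libraries stood apart from the others for some genes, by a gap test that chance passes in about 1 in 20 groups. Adgre1 was highest at 8.83 CPM in replicate 5, Cd74 at 15.5 CPM and S100a8, a neutrophil protein, at 0.981 CPM in the same library. H2-K1 was lowest at 26 CPM and Ctsh at 9.84 CPM, both in replicate 4. H2-Q6 was highest at 5.52 CPM, Eng, an endothelial receptor, at 49.5 CPM, Gm10715 at 3.93 CPM and Csf3r, the neutrophil growth factor receptor, at 9.74 CPM, all in replicate 1, the library with 5.59% of counts in mitochondrially encoded genes and 0.46 CPM of Gabra6. Whether the tissue in that library bears on them was not tested.

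Satellite-like genes also differed between mPPL-001 and untreated YG8JR when tested directly (edgeR adjusted p from 1.44e-05 to 0.0346 for the 5 named). The log2 fold changes were 3.80 for Gm10801, 3.79 for Gm10718, 4.14 for Gm21738, 3.99 for Gm10717 and 4.73 for Gm10715, whose untreated libraries held 0.0293 to 0.0896 CPM, a few counts each. For each, every mPPL-001 library was above every untreated library. Against mock these genes were at -0.53 to 0.01 on the same scale, and none was called.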

How the results depend on the processing

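In every alternative run, all of the 58 genes called between mPPL-001 and WT that were tested kept their direction. The counts of calls did not keep their size. Higher and lower calls, 54 and 4 as reported, were 146 and 37 with no low-count filter, 34 and 0 with no batch term, 11 and 0 with only the 8 libraries fitted, 8 and 3 within batch A, 12 and 1 within batch B, 24 and 0 with the Y-linked level as covariate, 28 and 7 with WT replicate 1 as the only WT library, 163 and 37 by voom with sample weights, and 449 and 216 by DESeq2. Lower calls were 8 with a stricter filter. Leaving out 1 library at a time gave 26 to 1282 higher and 0 to 625 lower calls, the largest without the library labelled WT replicate 3. With the replicate number as a block 9 and 0 were called; the numbers did not pair the libraries. The alternatives added after seeing the data gave 15 and 0 without the 4 libraries under 1 CPM of Gabra6, and 58 and 8 without WT replicate 3 and with the Y-linked covariate. The cause was not tested, except that fewer libraries enter several of these fits.

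By DESeq2 mock against WT gave 1137 and 1384, untreated YG8JR against WT 945 and 1218, and mPPL-001 against untreated YG8JR 15 and 6. Without WT replicate 3 the first 2 gave 2540 and 2429, and 2140 and 2081. Genes under about 1 CPM rest on few counts, and their folds are imprecise.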

Other observations

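Xist, the X-inactivation RNA made in female cells, was at 3.72, 3.56, 0.699, 1.03 and 1.88 CPM in mPPL-001 replicates 1 to 5, all high in Y-linked genes, and at 1.19 and 1.21 CPM in the 2 mock libraries high in Y-linked genes. The untreated and WT libraries high in Y-linked genes held 0.328, 0.0273 and 0.373 CPM. The sex of the marrow donors is not in the labels.

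Ttr, the transthyretin of choroid plexus, was at 4246 CPM in mPPL-001 replicate 5 and at 2.51 to 13.5 CPM in the other 4. Pax5, a B cell factor also made by midbrain and hindbrain neurons, was at 28.1 and 34.3 CPM in mPPL-001 replicates 3 and 4 and at 1.52 to 7.38 CPM in the other 3.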
